A study of Mus musculus with 6 samples.

Results

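The genes described here are Cxcr4, its chemokine ligand Cxcl12, the scavenger receptor gene of that ligand, Ackr3, and 7 further chemokine receptor genes, Cxcr2, Cxcr3, Ccr1, Ccr2, Ccr7, Ccr9 and Cx3cr1. They were chosen by name from 22180 genes with a probe set annotated to them alone, and each of the 10 genes had 1 such probe set. All 10 passed the filter on low values, which kept 15526 genes.

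RNA came from c-Kit+ leukemic spleen cells of 6 samples, 3 labelled Mx1-Cre, Cbfb+/56M, called the control here, and 3 labelled Chd7f/f, Mx1-Cre, Cbfb+/56M. Both genotypes share Mx1-Cre, a recombinase that is switched on by interferon or pIpC and is active in blood cells and in other interferon-responsive cells, and the Cbfb+/56M allele, which encodes the leukemia fusion of Cbfb and MYH11. Both were given pIpC and the mutagen ENU, and cells were sorted from mice with end-stage leukemia, so the control is itself leukemic and no normal cells were compared. The Chd7f/f mice carry floxed alleles of the chromatin remodeller gene Chd7 in addition. Ages and sexes are not in the labels. The design text calls the samples independent but does not name the mouse behind each, so p-values reflect only how these samples vary.

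Chemokines are small secreted proteins that guide migrating cells, and their receptors are G protein-coupled receptors on the cell surface. CXCL12 from bone marrow stroma holds stem and progenitor cells in their niche by binding CXCR4, while ACKR3 binds and removes CXCL12 without the usual G protein signal. Other receptors mark mature traffic: CXCR2 draws neutrophils, CCR2 and CX3CR1 draw monocytes, CXCR3 activated T and NK cells, CCR7 cells bound for lymph nodes and CCR9 cells bound for gut and thymus.

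Cxcr4 and Cxcl12 varied most between leukemias of the same genotype, and Ackr3 alone among the 10 had no overlap between genotypes. Their promoters are shown for that reason, as windows from 250 bases before to 50 bases after the start site, taken from RefSeq (GRCm38.p6), where 9 of the 10 genes matched, all but Ccr7. Capitals mark matches on either strand to GGGCGG (the GC box), to TGTGGT or TGCGGT (the core-binding factor motif) and to TATAAA (the TATA box).
Cxcr4, chr1:128592250-128592549, minus strand: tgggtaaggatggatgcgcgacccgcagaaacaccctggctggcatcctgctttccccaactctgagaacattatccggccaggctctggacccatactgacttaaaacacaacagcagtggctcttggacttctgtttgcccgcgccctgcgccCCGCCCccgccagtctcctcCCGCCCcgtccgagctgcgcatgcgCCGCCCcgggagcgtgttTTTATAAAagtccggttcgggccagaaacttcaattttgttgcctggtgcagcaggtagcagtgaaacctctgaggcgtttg
Cxcl12, chr6:117168285-117168584, plus strand: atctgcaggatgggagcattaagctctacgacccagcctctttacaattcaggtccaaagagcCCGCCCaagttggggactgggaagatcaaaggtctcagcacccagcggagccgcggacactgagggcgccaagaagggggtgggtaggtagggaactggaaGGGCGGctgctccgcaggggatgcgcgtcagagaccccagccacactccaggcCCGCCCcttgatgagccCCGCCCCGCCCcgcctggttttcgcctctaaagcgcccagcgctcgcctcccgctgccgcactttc
Ackr3, chr1:90203730-90204029, plus strand: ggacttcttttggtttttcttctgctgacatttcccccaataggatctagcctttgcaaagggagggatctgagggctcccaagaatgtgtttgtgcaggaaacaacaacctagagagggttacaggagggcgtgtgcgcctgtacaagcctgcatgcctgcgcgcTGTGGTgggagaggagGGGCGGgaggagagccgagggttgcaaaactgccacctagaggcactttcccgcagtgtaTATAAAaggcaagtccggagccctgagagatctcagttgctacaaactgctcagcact

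The Cxcr4 window held 3 GC boxes between -95 and -45. A TATAAA match lay at -30 to -25 and overlapped a match on the opposite strand. The Cxcl12 window held 5 GC boxes and no TATAAA. The Ackr3 window held 1 GC box, 1 TATAAA at -8 to -3, nearer the start site than that of Cxcr4, and a core-binding factor match at -84 to -79. GC boxes were in 3 of the 9 windows, those of Cxcr4, Cxcl12 and Ackr3, against 35.7% of 32851 windows of the same length. Core-binding factor matches were in 4, those of Ackr3, Cxcr3, Ccr1 and Cx3cr1, against 22.4% of all windows. TATAAA was in 13.6% of all windows. The G and C content was 59.3% for Cxcr4 and 64.7% for Cxcl12, beside a median of 52.7% over all windows and 38% for Ccr2. These are matches of letters and do not show that a factor binds.

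Values are levels on the log2 scale after RMA, the array method that corrects background, equalises arrays and combines probes, and differences are Chd7f/f minus control. Array medians lay between 4.72 and 4.84. Kit, the gene behind the sort, was between 11.68 and 12.48 on the 6 arrays. Chd7 was at 6.17, 7.54 and 5.32 in the control and at 5.48, 6.50 and 5.91 in Chd7f/f leukemias, a difference of -0.38 (SE 0.58), which without control replicate 2 was 0.22. Where the probes lie relative to the floxed part is unknown here, and the level is therefore no check of the deletion. On control replicate 2 the X-inactivation transcript Xist was at 10.1, where the other 5 arrays were at 3.88 or below. The Y-linked gene Eif2s3y was at 4.43 on that array and at 8.72 to 9.11 on the other 5. By these 2 genes control replicate 2 reads as female and the other 5 arrays as male, so only the control mixes sexes. The part of sex in the differences was not tested. Cxcr3, the X-linked gene of the 10, was at 5.64 on control replicate 2, within the range of the other arrays. No gene of the 15526 passed an adjusted p of 0.05 (limma, 0%), with 286 genes (1.84%) at an unadjusted p under 0.05. With a trended and robust prior 345 genes had an unadjusted p under 0.05 and again 0 passed after adjustment.

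Detection calls are not analysed here, so each array's 1105 olfactory receptor genes, a class that blood cells do not generally express, served as a reference for what a silent gene reads. Their median was between 3.07 and 3.15 and their 95th percentile between 4.66 and 4.85. Some olfactory genes read far above that, up to 9.35 on control replicate 1, so a level above the 95th percentile is not a detection call, and probe affinity keeps the levels of different genes from being ranked. Of the 10 genes 9 lay above the 95th percentile on every array, and Ccr1, the receptor of CCL3 and CCL5, lay under it on all 6. Cxcr4 exceeded it by 1.35 to 6.29 and Cxcl12 by 0.39 to 4.38. For the other 7 genes the excess ran from 0.24 to 2.19, so their levels may lie near background.

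**Figure D1:**
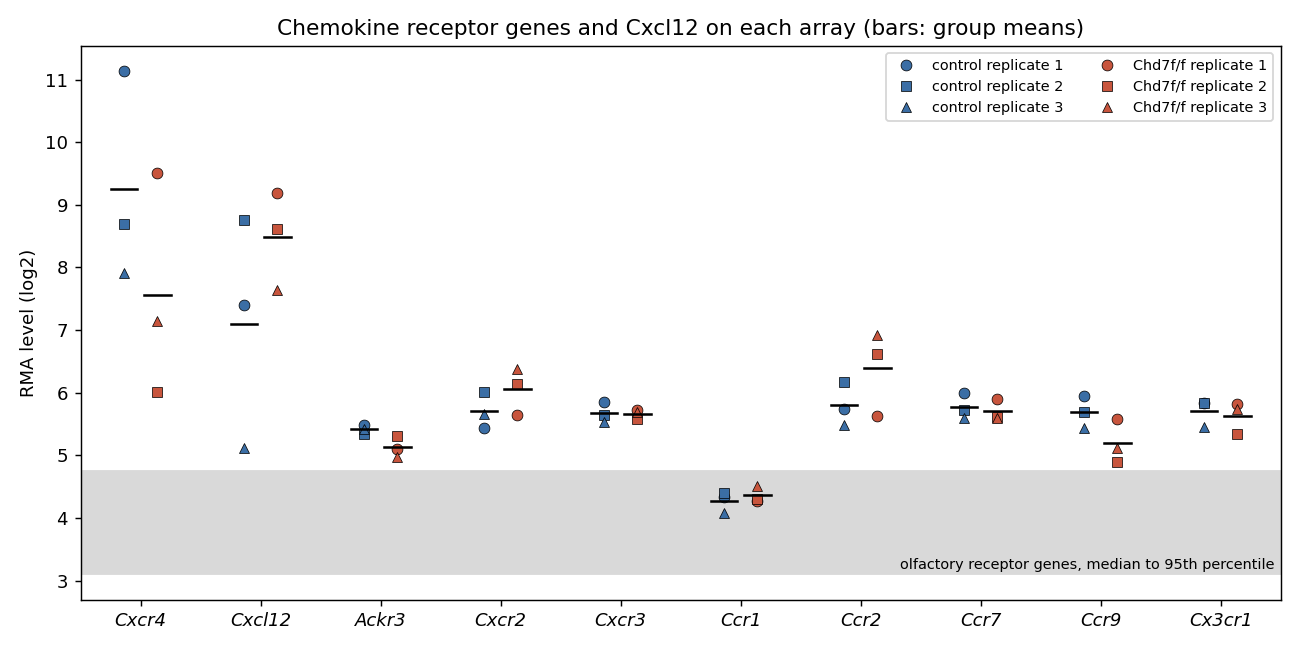
RMA levels (log2, vertical axis) of the 10 genes on each of the 6 arrays, control in blue and Chd7f/f in red, with symbols for the replicate number and bars for group means; the grey band runs from the median to the 95th percentile of olfactory receptor genes, averaged over arrays. Cxcr4 spreads from 6.01 to 11.13 and Cxcl12 from 5.12 to 9.18, while Ccr1 stays inside the band.

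Cxcr4 was at 11.13, 8.69 and 7.91 on the 3 control arrays and at 9.51, 6.01 and 7.14 on the 3 Chd7f/f arrays. Control replicate 1 was the highest and Chd7f/f replicate 2 the lowest, and the genotypes overlapped, since Chd7f/f replicate 1 lay above 2 of the 3 control arrays. The range over the arrays, 5.13 on the log2 scale, is a 34.9-fold span. The control mean was 9.25 ± 1.68 and the Chd7f/f mean 7.55 ± 1.78 (SD, n = 3 each). The difference of -1.69 (SE 1.14, a fold of 3.23) had a 95% confidence interval from -4.46 to 1.07 and did not pass the test (limma, adjusted p = 0.9998). An exact two-sided permutation test gave p = 0.4, where 3 against 3 arrays cannot go below 0.1. The difference shrank to -0.75 when control replicate 1 was left out and to -0.92 when Chd7f/f replicate 2 was, and it widened to -2.67 when Chd7f/f replicate 1 was. In bulk RNA such as this, fewer cells of a type and less RNA per cell cannot be told apart.

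Control replicate 1 and Chd7f/f replicate 1, the 2 arrays with the highest Cxcr4 levels, lay at opposite ends for the mean level of 7 measured erythroid genes, at 10.9 and 8.94, the highest and the lowest of the 6. All 7 were above the olfactory 95th percentile on every array, and they did not all share an order. The carbonic anhydrase gene Car1, which had the highest mean level, was lowest on control replicate 1, at 11.09, and between 12.0002 and 12.21 elsewhere. The transferrin receptor gene Tfrc was highest there, at 11.06, and lowest on Chd7f/f replicate 1, at 6.36. The erythroid genes Slc4a1, Rhag and Ermap had the same highest and lowest arrays as Tfrc. Their levels there were 11.47 and 5.92, 12.02 and 10.32, and 11.80 and 10.82. The erythroid factor gene Klf1 and the erythropoietin receptor gene Epor were highest on neither of these 2 arrays. Both were lowest on Chd7f/f replicate 1, at 9.32 and 7.67. The mean of 8 mast cell and basophil genes was lowest on control replicate 1, at 8.17, and between 8.44 and 8.96 elsewhere. The mast cell protease gene Cpa3 was between 12.92 and 13.09 on every array. Hdc, Fcer1a and Ms4a2 of this list were lowest on control replicate 1, at 9.86, 10.75 and 11.05. On the other arrays they were at 11.25 to 12.27, 12.06 to 12.29 and 11.94 to 12.17. Cma1, Prss34 and Tpsb2 were lowest on Chd7f/f replicate 2, and Mcpt8 on control replicate 2. The mean of 10 neutrophil genes was between 4.95 and 5.79, and its highest member, the primary granule peroxidase gene Mpo, was at 8.59 on control replicate 1 and 8.69 on Chd7f/f replicate 1 and between 6.13 and 7.81 elsewhere. The part of these cell types in the Cxcr4 levels was not tested.

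Cxcl12 was at 7.40, 8.76 and 5.12 in the control and at 9.18, 8.62 and 7.64 in Chd7f/f leukemias. Control replicate 3 was the lowest array by more than 2 units, and control replicate 2 lay above 2 of the 3 Chd7f/f arrays, so the genotypes overlapped. Means were 7.09 ± 1.84 and 8.48 ± 0.78 (SD, n = 3 each), and the difference of 1.39 (SE 0.93) had an interval from -0.87 to 3.64 (limma, adjusted p = 0.9998). Leaving out control replicate 3 brought it to 0.40, and leaving out control replicate 2 to 2.22. Cxcl12 is best known as a product of stromal and endothelial cells. Of 11 measured stromal and endothelial markers the mean lay between 4.84 and 5.26, highest on control replicate 1, and 7 were above the olfactory 95th percentile on every array and 3 on none. The leptin receptor gene Lepr, which marks CXCL12-rich marrow stroma, was between 3.01 and 3.28 and the proteoglycan gene Dcn between 3.74 and 3.89, both under the olfactory 95th percentile on every array. The collagen gene Col1a1 was between 4.87 and 5.17. Acta2, the smooth muscle actin gene, had the highest mean level among these markers, at 6.32 to 6.65. The endothelial genes Pecam1, Cdh5 and Kdr were at 5.10 to 6.13, 4.76 to 4.97 and 5.04 to 5.88. Pdgfrb, which marks perivascular cells, was at 8.99 on control replicate 1, 7.67 on Chd7f/f replicate 1 and 5.24 to 5.64 on the other 4. The part of stromal and endothelial cells in the Cxcl12 levels was not tested.

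Ackr3 was at 5.48, 5.34 and 5.43 in the control and at 5.11, 5.31 and 4.98 in Chd7f/f leukemias. All 3 Chd7f/f values lay below the 3 control values, the nearest by 0.034. Means were 5.42 ± 0.068 and 5.13 ± 0.17 (SD, n = 3 each), a difference of -0.29 with an interval from -0.60 to 0.028 (limma, unadjusted p = 0.0678, adjusted p = 0.9998). Ackr3 was 1 of 10 genes without overlap, beside 6.81% of all tested genes in either direction and 4.37% in this one, so the count is near the background. Its levels exceeded the olfactory 95th percentile by 0.24 to 0.69 and may be near background.

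Among the receptors of phagocytes, Ccr2, which takes monocytes out of the marrow, was at 5.74, 6.17 and 5.48 in the control and at 5.63, 6.62 and 6.92 in Chd7f/f leukemias. Chd7f/f replicates 2 and 3 were the highest arrays and Chd7f/f replicate 1 lay among the control values. The difference was 0.60 (SE 0.37, interval -0.29 to 1.48; limma, adjusted p = 0.9998). Leaving out Chd7f/f replicate 3 brought it to 0.33 and leaving out Chd7f/f replicate 1 to 0.98, and array weights gave 0.999. Cxcr2 was at 5.44, 6.01 and 5.65 in the control and at 5.64, 6.13 and 6.38 in Chd7f/f leukemias. The order was again led by Chd7f/f replicates 3 and 2, and control replicate 2 lay above Chd7f/f replicate 1. Its difference was 0.35 (SE 0.24, interval -0.23 to 0.94; limma, adjusted p = 0.9998). It shrank to 0.19 when Chd7f/f replicate 3 was left out and to 0.22 when control replicate 1 was, and was 0.56 when Chd7f/f replicate 1 was. Array weights gave 0.53.

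Markers of neutrophils, monocytes and macrophages are set beside Ccr2 and Cxcr2. The mean of the 10 neutrophil genes was highest on Chd7f/f replicate 3, at 5.79, where Cxcr2 was highest too, and second lowest on Chd7f/f replicate 2, at 4.99, where Cxcr2 was second highest. All 8 tested neutrophil genes had a higher mean in Chd7f/f leukemias, with a median difference of 0.23 beside -0.027 over all tested genes, and 0 passed an unadjusted p of 0.05 (limma). On all arrays 5 of the 10 were above the olfactory 95th percentile, namely Mpo, Elane, Prtn3, Cd177 and Csf3r. The 3 above it on none were Ly6g, S100a8 and Camp. These were highest on Chd7f/f replicate 3, at 4.49, 4.72 and 4.06. The mean of 11 monocyte and macrophage genes was 7.13 on Chd7f/f replicate 3, the highest array, 6.66 on Chd7f/f replicate 1 and 5.99 on Chd7f/f replicate 2, against 6.15, 6.46 and 5.65 on the control arrays. Of these 11 genes 10 had a higher mean in Chd7f/f leukemias, with a median difference of 0.54 beside -0.027 over all tested genes. Among them 1 passed an unadjusted p of 0.05 (limma) and 0 passed after adjustment. That gene, Mpeg1, was singled out after its values were seen. It differed by 1.12 and alone of the 11 had no overlap, beside 6.81% of tested genes in either direction and 2.45% on the higher side. The count is near the share in either direction. On all arrays 8 of the 11 were above the olfactory 95th percentile. C1qb, a complement gene of macrophages, had the highest mean level and was between 6.56 and 8.63. On Chd7f/f replicate 2, where Ccr2 was second highest, the monocyte mean was second lowest. The genes of the list differed in this. Ms4a6c had the same 2 top arrays as Ccr2, at 7.05 on Chd7f/f replicate 3 and 5.57 on Chd7f/f replicate 2. Ly6c2 and C1qb were second lowest on Chd7f/f replicate 2, at 6.83 and 7.30. The part of these cells in the receptor levels was not tested.

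Cx3cr1, the fractalkine receptor gene, was at 5.84, 5.83 and 5.45 in the control and at 5.82, 5.34 and 5.73 in Chd7f/f leukemias. Ccr1 was at 4.33, 4.404 and 4.08 in the control and at 4.27, 4.30 and 4.51 in Chd7f/f leukemias. The genotypes of both genes overlapped throughout. Differences were -0.075 for Cx3cr1 (interval -0.53 to 0.38) and 0.094 for Ccr1 (interval -0.25 to 0.43), neither past the test (limma, adjusted p = 0.9998 each).

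Among the receptors of lymphoid traffic, Ccr9 was at 5.94, 5.70 and 5.44 in the control and at 5.58, 4.89 and 5.12 in Chd7f/f leukemias. Only Chd7f/f replicate 1 reached into the control values, above control replicate 3. The difference of -0.50 (SE 0.22) had an interval from -1.04 to 0.044 (limma, unadjusted p = 0.0657, adjusted p = 0.9998). Ccr9 is also a receptor of plasmacytoid dendritic cells, and Siglech, a defining marker of those, was at 3.63 to 4.28, under the olfactory 95th percentile on every array. Bst2 and Tcf4, which those cells share with other cell types, were above it on every array, at 6.98 to 8.34 and 5.60 to 6.72. The part of these cells in the Ccr9 levels was not tested.

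Cxcr3 was at 5.85, 5.64 and 5.53 in the control and at 5.73, 5.58 and 5.69 in Chd7f/f leukemias. Ccr7 was at 5.999, 5.73 and 5.60 in the control and at 5.90, 5.61 and 5.60 in Chd7f/f leukemias. Neither gene showed a separation of genotypes, with differences of -0.0076 (interval -0.32 to 0.30) and -0.074 (interval -0.45 to 0.31; limma, adjusted p = 0.9998 each). The sign of the Cxcr3 difference turned under median centring and another quantile normalization. Markers of the cells that usually carry these receptors were low: 5 of 7 measured T cell genes and 5 of 6 NK cell genes were under the olfactory 95th percentile on every array. The T cell gene with the highest mean level, Cd5, was between 4.94 and 5.63, and the NK cell gene with the highest, the cytotoxic granule gene Nkg7, between 6.51 and 7.96. Of 6 B cell genes 2 were above the reference on all arrays, Ighm and Cd79a. The immunoglobulin heavy chain gene Ighm was at 9.30 to 12.24 and Cd79a at 4.97 to 7.18. The B cell marker gene Ms4a1, at 3.57 to 3.95, was under the reference on every array. Of 7 dendritic cell genes 3 were above it on all arrays, the tetherin gene Bst2 having the highest mean level. All 5 measured platelet and megakaryocyte genes had a mean above the reference, and 4 were above it on all arrays. The glycoprotein gene Gp5 was at 8.64 to 10.62. Vwf, at 4.51 to 5.02, was under the reference on some arrays.

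**Figure D2:**
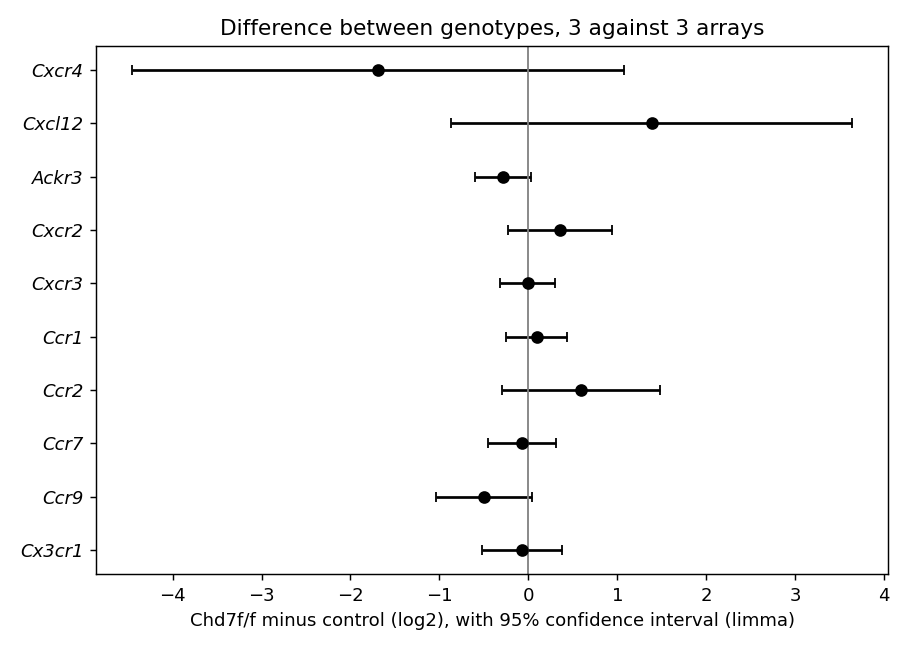
Differences between genotypes (Chd7f/f minus control, log2, horizontal axis) for the 10 genes, with 95% confidence intervals from limma over 3 against 3 arrays. Every interval includes 0, and those of Cxcr4 and Cxcl12 are the widest.

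None of the 10 genes had an unadjusted p under 0.05 (limma, 0 of 10, beside 1.84% of all tested genes), and 6 of them had one in at least 1 of the alternative analyses. The differences were positive for 4 genes and negative for 6, with a median of -0.041 beside -0.027 over all tested genes. A difference of 1 or more on the log2 scale, seen in 1.47% of tested genes, was found for Cxcr4 and Cxcl12. For 6 genes, Ackr3, Cxcr2, Cxcr3, Ccr1, Ccr7 and Cx3cr1, the whole interval lay within 1 log2 unit of 0. For Cxcr4 the interval ran from 0.046 to 2.10 times the control level, and for Cxcl12 from 0.55 to 12.5 times. At this number of arrays a change of either gene in either direction was not resolved.

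The spread between leukemias of the same genotype set Cxcr4 and Cxcl12 apart from most genes. The SD pooled over both genotypes was 1.73 for Cxcr4, larger than that of 99.6% of tested genes, and 1.41 for Cxcl12, larger than that of 99%, where the median gene had 0.22. Ccr2 was at 0.54 (88.2%), Cxcr2 at 0.34 (72.9%), Ccr9 at 0.30 (68.3%) and Cx3cr1 at 0.24 (56.1%). Ccr7, Ccr1, Ackr3 and Cxcr3 lay under the median gene, at 0.19, 0.15, 0.13 and 0.12.

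**Figure D3:**
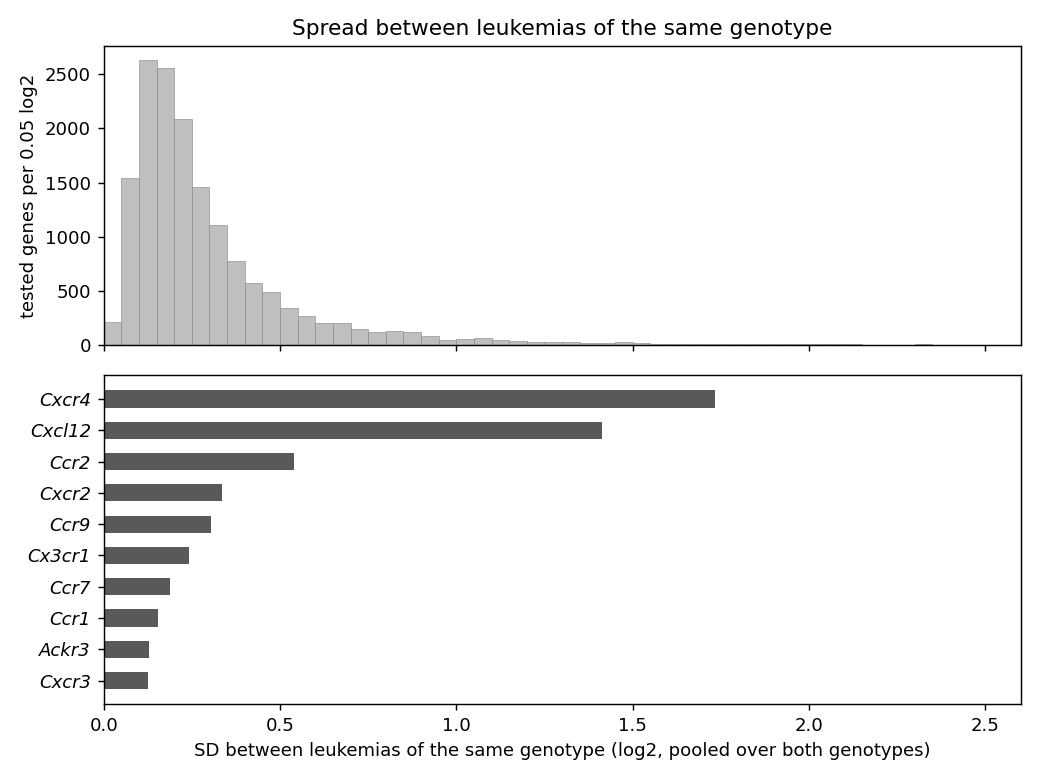
Upper panel, number of tested genes per 0.05 log2 of the SD between leukemias of the same genotype (horizontal axis, log2, pooled over both genotypes); lower panel, the same SD for each of the 10 genes as bars. Cxcr4 at 1.73 and Cxcl12 at 1.41 lie in the far tail, and the other 8 lie at 0.54 or below.

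The 6 genes with profiles nearest to that of Cxcr4 over the 6 arrays were found by the root mean square difference of levels after each gene's own mean was subtracted. They were Pdgfrb (0.74), a receptor of platelet-derived growth factor, Spry1 (0.75), an inhibitor of receptor kinase signalling, Abca1 (0.76), a cholesterol exporter, Sbspon (0.78), Tnfrsf26 (0.78) and Dpp4 (0.80), while the median tested gene was at 1.66. Dpp4 encodes the surface protease that trims and inactivates CXCL12, and was at 11.93, 10.45 and 10.15 in the control and at 11.16, 8.75 and 10.41 in Chd7f/f leukemias. Its highest and lowest arrays, control replicate 1 and Chd7f/f replicate 2, were those of Cxcr4. Pdgfrb was at 8.99, 5.64 and 5.24 in the control and at 7.67, 5.27 and 5.49 in Chd7f/f leukemias, high on both arrays numbered 1. Sbspon was at 9.82, 7.03 and 5.88 in the control and at 6.25, 5.30 and 5.55 in Chd7f/f leukemias, high on control replicate 1 alone. Since likeness to Cxcr4 chose these genes, their highest array and the direction of their differences follow from the choice and are given as a description. The differences ran from -1.87 for Sbspon to -0.48 for Pdgfrb. Without control replicate 1 they ran from -0.90 for Tnfrsf26 to 0.70 for Pdgfrb, with Sbspon at -0.75.

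**Figure D4:**
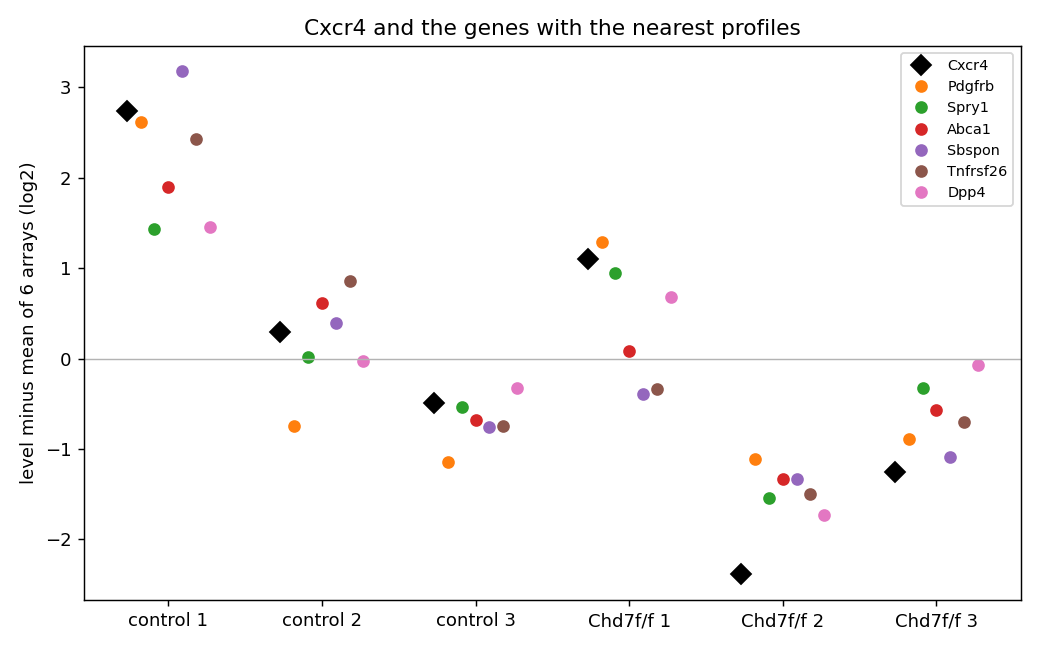
Levels of Cxcr4 (black diamonds) and of the 6 genes with the nearest profiles (coloured points) on each array, as log2 level minus the gene's mean over the 6 arrays. All 7 are highest on control replicate 1, and Cxcr4 is lowest on Chd7f/f replicate 2.

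Other chemokine receptors were read from a list of 16 genes, of which 15 were measured and 9 tested. On all arrays 4 were above the olfactory 95th percentile, Ackr1, Ackr2, Ccrl2 and Cxcr5, and 9 were under it on every array. Among the tested genes 5 had higher and 4 lower means in Chd7f/f leukemias, the median difference being 0.012, and 0 passed an unadjusted or adjusted p of 0.05 (limma). Ackr1, the Duffy chemokine scavenger gene known from red cells and venules, was at 6.45, 9.10 and 9.20 in the control and at 8.86, 9.15 and 8.56 in Chd7f/f leukemias. Control replicate 1, the array with the most Cxcr4, was the low one, and the difference of 0.60 turned to -0.30 without it. Ccr3, the eotaxin receptor gene of eosinophils, basophils and mast cells, was at 4.80, 4.36 and 3.43 in the control and at 4.15, 3.84 and 4.85 in Chd7f/f leukemias, under the olfactory 95th percentile on every array but Chd7f/f replicate 3. Cxcr5 and Ccr10, receptors of follicular and of skin and mucosal homing, differed by 0.031 and -0.030.

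Chemokine ligand genes other than Cxcl12 formed a list of 33, of which 32 were measured and 25 tested, 15 higher and 10 lower, with a median difference of 0.028. One had an unadjusted p under 0.05 (limma, in 1.15% of tested genes on the lower side) and 0 passed after adjustment. This was Ccl5, which draws T cells and monocytes. Its levels were 7.57, 6.68 and 6.56 in the control and 6.20, 5.52 and 6.48 in Chd7f/f leukemias. All Chd7f/f values lay below the control values, with a difference of -0.86 (SE 0.36; limma, unadjusted p = 0.0497, adjusted p = 0.9998) that was -0.55 without control replicate 1 and -0.55 with array weights. Ccl28, a mucosal ligand, also had no overlap, at 5.59 to 5.65 in the control and 5.47 to 5.49 in Chd7f/f leukemias, a difference of -0.14. These were the 2 of 25 tested ligand genes without overlap, beside 6.81% of all tested genes in either direction and 4.37% in this one, so the count is near the background. Ccl3 (difference 0.71) and Ccl9 (0.76), ligands of Ccr1, overlapped between genotypes. Array weights brought the Ccl3 difference to 1.11, and it was 0.37 when Chd7f/f replicate 3 was left out. That of Ccl9 was 0.41 without Chd7f/f replicate 3, 0.42 without control replicate 3, 1.33 without control replicate 2 and 1.23 with array weights. Ccl2, the ligand of Ccr2, ranged from 5.34 on Chd7f/f replicate 2 to 8.77 on Chd7f/f replicate 1 and differed by -0.027. Ccl17 was at 6.63 on control replicate 1 and 8.44 to 8.997 on the other 5 arrays, low where Ackr1 was low. Ccl2 and Ccl17 were singled out after their values were seen.

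**Figure D5:**
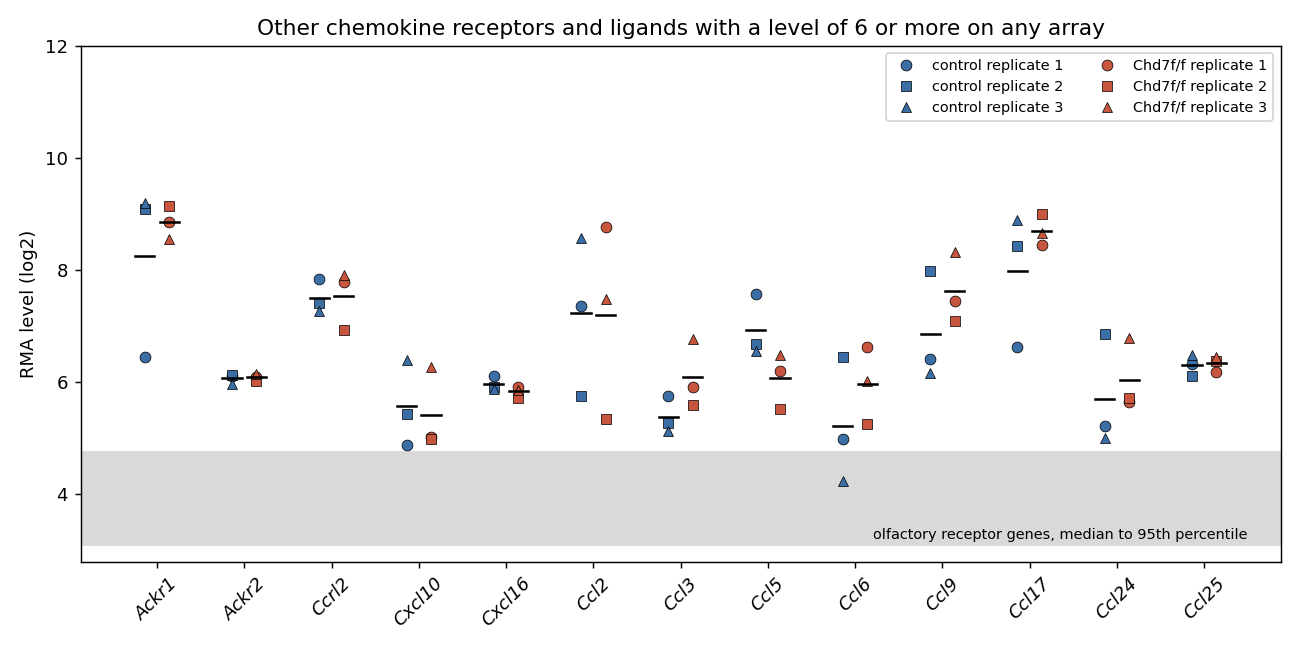
RMA levels (log2) of the 13 other chemokine receptor and ligand genes with a level of 6 or more on any array, a choice made after the values were seen, control in blue and Chd7f/f in red, bars for group means, grey band from the median to the 95th percentile of olfactory receptor genes. Ackr1 and Ccl17 are low on control replicate 1 at 6.45 and 6.63, and Ccl2 spans 5.34 to 8.77.

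The list of receptor signalling and desensitization genes also holds the ligand gene Mif and the protease gene Dpp4. Of its 29 measured genes, 28 were above the olfactory 95th percentile on all arrays and Rgs16 was under it on every array. Some of the 28 lay close to it, such as the receptor kinase gene Grk3 at 4.95 to 5.29. Of 28 tested genes 18 were higher and 10 lower, with a median difference of 0.097, and 0 had an unadjusted p under 0.05 (limma). Itch, the ubiquitin ligase that sends CXCR4 to lysosomes, was at 8.42, 8.63 and 8.37 in the control and at 9.06, 8.79 and 8.66 in Chd7f/f leukemias. Its genotypes did not overlap, with a difference of 0.36 (SE 0.15, interval -0.0049 to 0.73; limma, adjusted p = 0.9998). Rgs19, which shortens G protein signals, also had no overlap, by a difference of 0.42 that was 0.10 without control replicate 1 and 0.27 under array weights. These were the 2 of 28 tested genes without overlap, beside 6.81% of all tested genes in either direction and 2.45% on the higher side. The count is near the share in either direction. Mif, which encodes another ligand of CXCR4, differed by -0.97 (SE 0.46) and the receptor kinase gene Grk5 by 0.58 (SE 0.37), and both overlapped. The Mif difference was -0.31 with array weights, and that of Grk5 was 0.15 without control replicate 1 and 0.22 with array weights. The inhibitory G protein gene Gnai2 was at 11.54 to 11.79 and the arrestin gene Arrb1 at 9.72 to 10.05.

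Of 23 measured homing and retention molecules outside the chemokine family, 16 were above the olfactory 95th percentile on all arrays and 6 on none. Of 20 tested genes 10 had higher and 10 lower means in Chd7f/f leukemias, none lacked overlap, and 0 were at an unadjusted p under 0.05 (limma). Itga4, the integrin that binds VCAM1 in marrow, was at 10.33 to 11.19 and the selectin ligand gene Selplg at 10.38 to 10.89. The tetraspanin gene Cd9 differed by -0.48, the gut homing integrin gene Itgb7 by 0.27, the hyaluronan receptor gene Cd44 by -0.35 and the prostaglandin receptor gene Ptger4 by -0.11 (limma, adjusted p = 0.9998 each). The Cd44 difference was -0.0068 when control replicate 3 was left out, -0.0061 when Chd7f/f replicate 2 was, and -0.66 when either control replicate 1 or Chd7f/f replicate 3 was. The Cd9 difference was -0.30 when its probe sets were averaged.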

How the data were processed

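The authors deposited 1 log2 value per probe set and array, with Affymetrix Expression Console and RMA named in the submitters' processing notes, without versions or settings. Values of 41345 probe sets, 0 of them missing, ran from 1.78 to 13.5. RMA equalises arrays, so differences in total signal are no longer visible, and 6 arrays limit the precision. Symbols came from the platform's annotation, updated by Entrez identifier through RefSeq (GRCm38.p6). There were 23521 probe sets with 1 symbol, 1814 with several and 16010 with none listed, and genes whose mean reached the 30th percentile (4.13) were tested.

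The test between genotypes was limma 3.58.1 (R 4.3.3, lmFit with eBayes and no covariate) on the deposited log2 values, with Benjamini-Hochberg adjustment over 15526 genes. Plots used matplotlib 3.10.9. The steps were checked on simulated data.

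The members and lists were chosen with earlier results of these data known. Named genes were the members, Chd7, Kit, up to 4 genes of smallest p per pathway list, the marker gene of highest mean level per cell type with markers set beside a result, and the 6 genes nearest to Cxcr4, without predicted genes, snoRNAs and microRNAs. Others named for their levels were chosen after values were seen. Alternatives were 2 normalizations, 2 filters, the mean of probe sets, another prior, the replicate number as a block, array weights and leaving out arrays. Correlations of deviations between arrays of the same number were 0.027, -0.025 and 0.034. They give no sign of pairing but cannot exclude it, and the labels do not say whether the numbers pair the samples.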

Additional observations from a re-analysis of the deposited data

How the results depend on the processing

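Of the 10 genes, 6 kept their direction under all 15 alternatives, which include leaving out each array, and none passed an adjusted p of 0.05 in any of them (limma, smallest adjusted p 0.989). An unadjusted p under 0.05 was met by 6 of the 10 genes in at least 1 alternative. Ccr9 met it in 6, Cxcr4 and Ccr2 in 3 each, Ackr3 and Cxcr2 in 2 each and Cxcl12 in 1, the smallest being 0.0087 for Ccr2 without Chd7f/f replicate 1. Leaving out 1 array gave differences from -2.67 to -0.75 for Cxcr4, 0.40 to 2.22 for Cxcl12, -0.38 to -0.21 for Ackr3, 0.19 to 0.56 for Cxcr2, 0.33 to 0.98 for Ccr2 and -0.69 to -0.34 for Ccr9. The 4 genes near 0 turned: leaving out 1 array gave -0.078 to 0.079 for Cxcr3, -0.0032 to 0.16 for Ccr1, -0.17 to 0.038 for Ccr7 and -0.20 to 0.072 for Cx3cr1. Cxcr3 was also at 0.00025 with another quantile normalization, 0.00051 with median centring, 0.049 with array weights and 0.049 without both arrays numbered 1, an alternative added after the data were seen, and Cx3cr1 was at 0.026 with array weights. Ccr1 was not tested under the filter at the 50th percentile. Among other named genes, leaving out 1 array gave -0.89 to 0.22 for Chd7, -0.041 to 0.36 for Kit, -0.30 to 1.08 for Ackr1, -0.059 to 0.12 for Cxcr5, -0.30 to 0.38 for Ccr3, -0.13 to 0.16 for Ccr10, -0.0083 to 0.50 for Itgb7, -0.29 to 0.044 for Ptger4, -1.25 to 0.70 for Pdgfrb and -1.24 to 0.0087 for Spry1. Without both arrays numbered 1, Kit was at -0.10, Ackr1 at -0.30 and Itgb7 at -0.040.

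With the replicate number as a block 332 genes had an unadjusted p under 0.05 and 0 passed after adjustment, Cxcr4 stayed at -1.69 and Cxcl12 at 1.39, and the block changed no call after adjustment. The unadjusted limma p was then 0.0123 for Cxcr4 and 0.0332 for Ccr9. The unadjusted count, 286 in the text, was 530 without a filter, 159 with the filter at the 50th percentile, 571 with array weights, and 272 to 481 without 1 array. Genes without overlap, 1058 in the text, numbered 1717 without a filter and 589 with the stricter one. They numbered 2140 to 2863 without 1 array and 4430 without both arrays numbered 1, since fewer arrays overlap less often by construction. The cause of the other changes was not tested.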
